A study of Mus musculus with 17 samples.

Results

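Ly6g, Cd177, Plaur, Ly6d and Ly6e are 5 genes of the Ly6/uPAR family, and they were followed here among 19938 genes measured on 17 Affymetrix Mouse Gene 1.0 ST arrays. They were chosen by name, as family genes to which the annotation assigns a feature of their own. Each had 1 such feature; whether it also binds transcripts of near-identical genes such as Ly6c1, Ly6c2, Ly6i or Ly6f was not tested, and this touches the Ly6g, Ly6i and Ly6f values. Ly6c1 and Ly6c2, the genes of the other protein used in the sort, were matched only by features that they share, so they are not named with values. The members of this family carry a compact, disulphide-bonded fold called the LU domain, and these 5 are held on the cell surface by a glycosylphosphatidylinositol (GPI) anchor, a lipid that replaces a membrane-spanning segment. Several serve as markers of blood cell types: the Ly-6G protein is the usual surface mark of mouse neutrophils, and CD177 and uPAR, the product of Plaur, act in neutrophil adhesion and migration.

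All samples were CD11b+ cells from the pooled spleens of female BALB/c mice, enriched on magnetic beads and then sorted by flow cytometry on Ly-6C and Ly-6G. The monocytic subset (Mo) had high Ly-6C with low Ly-6G. In the polymorphonuclear subset (PMN) this was turned round, with high Ly-6G and low Ly-6C. The mice were naive, or had received 100000 Her-2/CT26 tumour cells under the skin 3 or 6 weeks before, and the study asked how these cells, called myeloid-derived suppressor cells in tumour-bearing mice, change as the tumour grows. There were 3 naive, 3 3-week and 3 6-week Mo arrays, and 4 naive, 2 3-week and 2 6-week PMN arrays. The age of the mice and the number of spleens in a pool are not given in the sources used here. Whether replicate arrays were made from different pools of spleens is not stated, so the spread behind the p-values is that of the arrays and may be technical in part.

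The values are intensities on a log2 scale, so that a difference is the logarithm of a fold change. The arrays had median intensities of 95.3 to 114 (Mo) and 81.0 to 95.9 (PMN), and the number of arrays limits the precision. The subsets appeared to have been normalized apart, so levels are compared between stages of 1 subset and no test sets a Mo level against a PMN level. The cells were defined by the sort, and 2 receptor genes separated the subsets widely. Ccr2, a monocyte chemokine receptor, averaged 12.24 in the 9 Mo arrays and 6.30 in the 8 PMN arrays. Cxcr2, a neutrophil chemokine receptor, averaged 5.91 in Mo and 12.55 in PMN. Csf1r, also listed for monocytes, and Csf3r, also listed for mature neutrophils, had the same order with narrower gaps. On every PMN array Csf1r lay closer to its Mo levels than to 6.30. On every Mo array Csf3r lay closer to its PMN levels than to 5.91. Changes were tested with limma, p-values were adjusted over all 19938 genes, and the threshold for passing was an adjusted p of 0.05.

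In PMN at 6 weeks, Ly6g, Cd177 and Plaur rose 5.40-fold, 4.64-fold and 2.33-fold over naive PMN, Ly6d fell 1.77-fold, and Ly6e had a change near 0. The 3 rises were 2.43, 2.21 and 1.22 on the log2 scale. After quantile normalization of all 17 arrays together they were 1.66, 1.61 and 0.50. In Mo at 6 weeks, Ly6d fell 1.5-fold and Ly6g passed the test with a rise that rested on 1 of the 3 arrays and started from a level within background. At 3 weeks 0 of the 5 genes passed in either subset, while 2 in Mo and 1 in PMN had an unadjusted p below 0.05. These counts stand against a wide background. At 6 weeks 4 of the 5 genes passed in PMN, 3 higher and 1 lower, where 65.4% of all genes passed (25.5% higher, 40% lower), and 2 passed in Mo, 1 each way, where 46.2% did (21.8% higher, 24.4% lower). At 3 weeks the share of all genes was 6.03% in Mo (5.2% higher, 0.833% lower) and 0% in PMN. An unadjusted p below 0.05 was held by 32.9% of all genes in Mo and by 1.88% (374 genes) in PMN.

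From 3 to 6 weeks 4 of the 5 genes passed in PMN, 3 higher and 1 lower, against 58.7% of all genes (23.7% higher, 34.9% lower). In Mo 0 passed, against 7.51% of all genes (4.38% higher, 3.13% lower), and 3 had an unadjusted p below 0.05, against 18.3% of all genes. The change in Mo was also set against the change in PMN. That difference passed for 0 of the 5 genes at 3 weeks, where 0.00502% of all genes passed. It had an unadjusted p below 0.05 for 0 of the 5, against 16.6% of all genes. It passed for 2 genes at 6 weeks, both with Mo lower, where 17.5% of all genes passed (6.47% higher in Mo, 11% lower). From 3 to 6 weeks it passed for 3 genes, 1 with Mo higher and 2 with Mo lower, where 29.2% passed (11.9% and 17.3%).

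**Figure D1:**
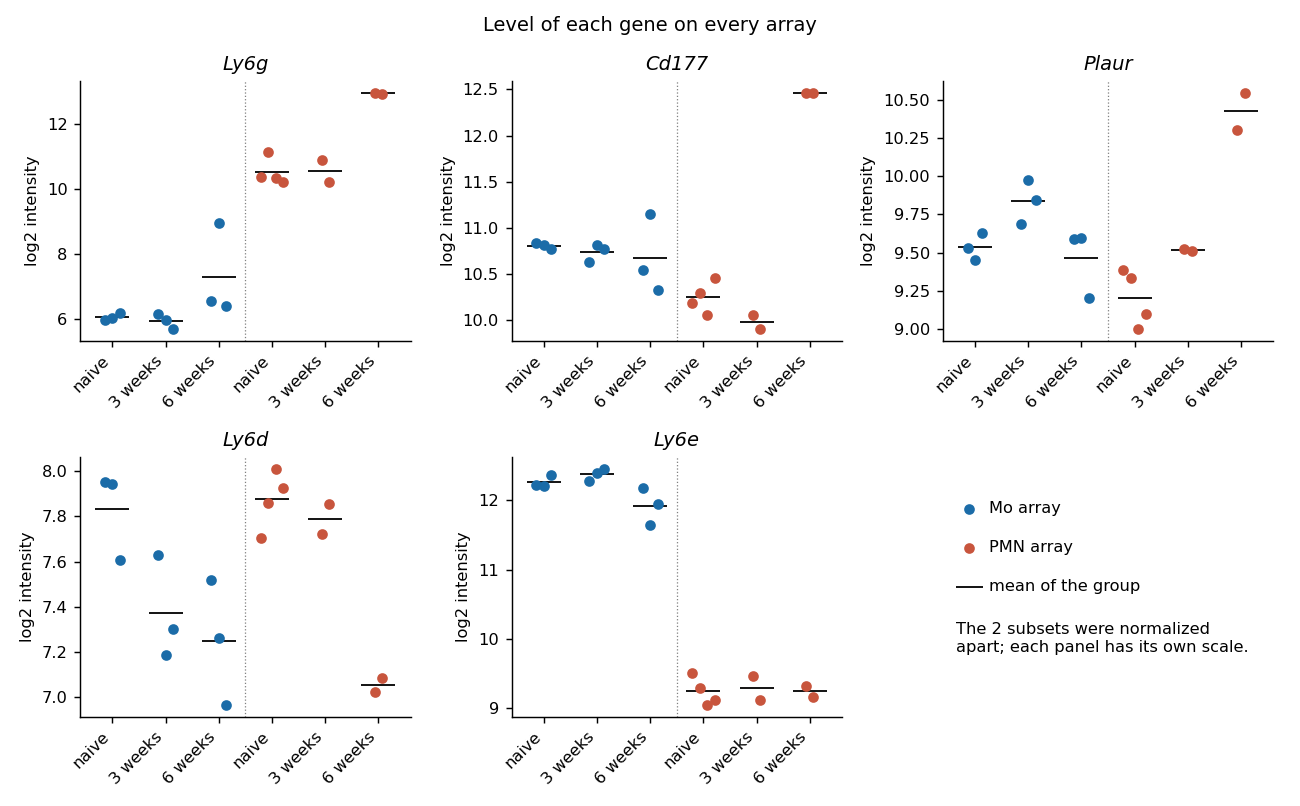
Log2 intensity of the 5 genes on every array (points), by subset and stage, with the mean of each group (bar); each panel has its own axis. The 6-week PMN arrays lie above all other PMN arrays for Ly6g (12.97 and 12.94), Cd177 (12.46 on both) and Plaur (10.31 and 10.55), and below them for Ly6d (7.02 and 7.08).

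The promoters of the 3 genes that rose in PMN are shown because these genes moved together there. RefSeq windows on GRCm38.p6, from 250 bases before to 50 bases after the start site, were matched for 3 of the 5 genes. Ly6g has 2 start sites with overlapping windows, and the first is printed. The Plaur window begins at 24462233, inside the span of the gene (24460937 to 24475970). Its start site is thus not the first base of that span, and no window at that base was searched. Both strands were searched for GAGGAA, of the type bound by PU.1, a master factor of myeloid cells, and for TTGCNNAA, of the type bound by C/EBP factors, which act in granulocyte development. Capitals mark the matches, which appear as the reverse complement where they lie on the other strand.
Ly6g (chr15:75155011-75155310, plus strand): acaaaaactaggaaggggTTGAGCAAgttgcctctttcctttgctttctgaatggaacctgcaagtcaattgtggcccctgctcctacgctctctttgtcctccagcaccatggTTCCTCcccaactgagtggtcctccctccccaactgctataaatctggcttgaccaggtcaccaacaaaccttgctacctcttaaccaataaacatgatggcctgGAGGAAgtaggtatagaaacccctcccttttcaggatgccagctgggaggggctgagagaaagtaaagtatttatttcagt
Cd177 (chr7:24760262-24760561, minus strand): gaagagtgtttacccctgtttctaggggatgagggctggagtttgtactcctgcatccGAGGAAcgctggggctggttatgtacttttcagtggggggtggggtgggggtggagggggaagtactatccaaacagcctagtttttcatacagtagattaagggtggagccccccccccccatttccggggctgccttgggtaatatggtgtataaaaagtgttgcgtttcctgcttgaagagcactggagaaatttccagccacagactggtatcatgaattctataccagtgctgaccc
Plaur (chr7:24462233-24462532, plus strand): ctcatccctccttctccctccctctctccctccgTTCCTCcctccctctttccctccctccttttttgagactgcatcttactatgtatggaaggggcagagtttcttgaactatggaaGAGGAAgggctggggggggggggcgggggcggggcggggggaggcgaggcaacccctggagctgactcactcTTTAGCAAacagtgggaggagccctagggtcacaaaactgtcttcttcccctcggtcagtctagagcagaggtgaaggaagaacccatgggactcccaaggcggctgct
GAGGAA was found 2 times in the printed Ly6g window, starting at -136 and -31 from the start site, 1 time in Cd177, at -192, and 2 times in Plaur, at -216 and -131. TTGCNNAA was found 1 time in Ly6g, at -232, and 1 time in Plaur, at -59, and was not in the Cd177 window. In the second Ly6g window GAGGAA was found 3 times and TTGCNNAA was not found. Of all 32851 RefSeq promoter windows of this length, 28.3% hold GAGGAA and 10.8% hold TTGCNNAA. Matches to TTCNNNGAA, of the STAT type, and GAAANNGAA, of the interferon response type, are in 8.3% and 8.56% of all windows and in 0 of the 4 windows of these genes. A match describes the letters and does not show that a factor binds.

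Ly6g (chromosome 15, 75155261 to 75159128 on GRCm38.p6, Entrez 546644) encodes the protein on which PMN were separated from Mo, so a higher level in PMN is built into the sort. On the 4 naive PMN arrays its log2 level was 10.37, 11.14, 10.36 and 10.21, on the 2 3-week arrays 10.91 and 10.23, and on the 2 6-week arrays 12.97 and 12.94. Naive and 3-week PMN overlapped, and both 6-week arrays were above every other PMN array. The change at 6 weeks was 2.43 ± 0.47 (SE; adjusted p = 0.000443) against naive and 2.39 ± 0.55 (adjusted p = 0.00209) against 3 weeks. The 3-week change was 0.05, with a 95% interval from -0.95 to 1.05, which leaves room for a change of either sign. In these bulk samples, fewer cells of a type and less RNA per cell cannot be told apart.

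In Mo, the level of Ly6g was 5.97, 6.05 and 6.18 on the naive arrays, 6.17, 5.99 and 5.70 at 3 weeks, and 6.56, 8.95 and 6.43 at 6 weeks. All naive and 3-week arrays lie below the 95th percentile of 1190 olfactory and vomeronasal receptor genes, sensory genes taken here as a guide to background, which was 6.86 on the Mo arrays. Replicates 1 and 3 at 6 weeks also lie below it, and replicate 2 stands 2.46 above the mean of both. With all 3 arrays the fitted 6-week change was 1.24 ± 0.45 (adjusted p = 0.0333); with the naive level within background, its size is not a fold of expression. Without replicate 2 it was 0.42 (adjusted p = 0.161), and the call also ended when either of the first 2 naive arrays was left out (adjusted p = 0.0918 and 0.0788). The change against 3 weeks was 1.36 ± 0.45 (adjusted p = 0.0824).

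Other neutrophil genes were raised on the same Mo array. Replicate 2 was the highest of the 3 6-week Mo arrays in 13 of 16 genes listed for mature neutrophils. It was also the highest in 17 of 21 genes listed with the specific granules, the late-forming neutrophil granules. It was the highest in 2 of 11 genes of the azurophil granules, which form earlier, and in 5 of 20 monocyte genes, against 21.8% of all genes. Among the genes with the widest gaps, chosen after their values were seen, Stfa3 was at 8.26 against 5.13 and 5.31, Retnlg at 8.07 against 5.55 and 5.70, and Olfm4 at 8.52 against 6.06 and 6.42. Their part in the Ly6g result was not tested. The summed linear intensity of the 16 mature neutrophil genes ran from 3989 to 4838 in naive Mo, from 10749 to 18289 in 6-week Mo, and from 34584 to 39399 in naive PMN. The subsets were treated as normalized apart, so no share of neutrophils in Mo can be read from these sums. In Mo at 6 weeks 10 of the 16 genes rose and 2 fell, where 21.8% of all genes rose and 24.4% fell. Without replicate 2, 8 of the 16 still rose and 1 fell, where 26.9% of all genes passed in either direction, against 46.2% with it.

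**Figure D2:**
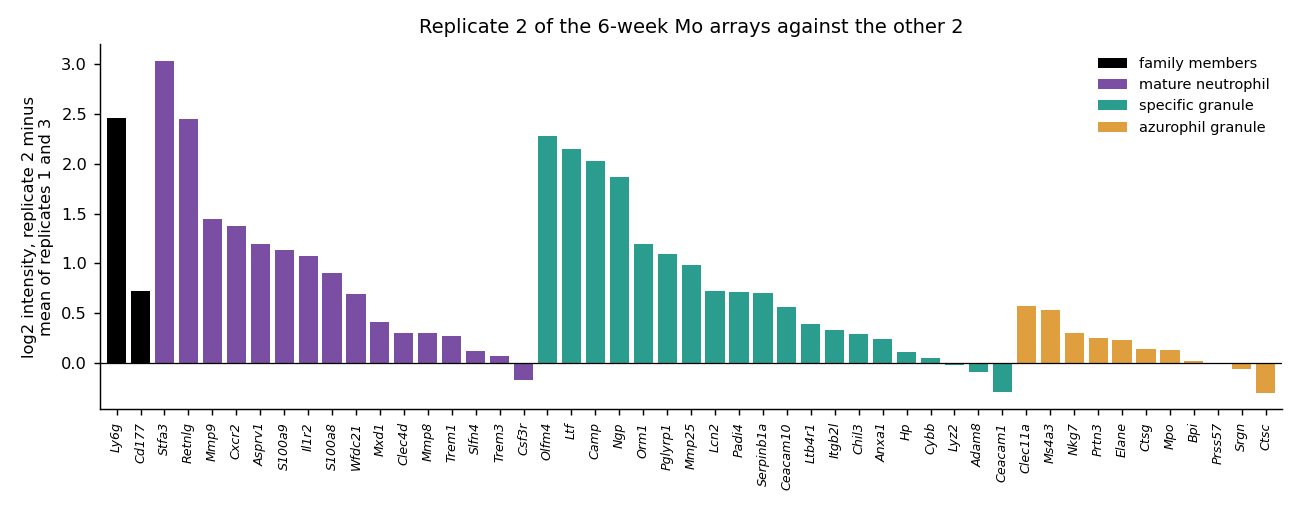
Log2 intensity of replicate 2 of the 6-week Mo arrays minus the mean of replicates 1 and 3, for Ly6g, Cd177 and the measured genes of 3 neutrophil lists (bars, from 0). The Ly6g bar (2.46) is as tall as that of Retnlg (2.44) and below that of Stfa3 (3.03), and the azurophil genes have a median of 0.14.

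The difference between the 6-week changes of Ly6g in Mo and PMN, Mo minus PMN, was -1.19 ± 0.65 (adjusted p = 0.252), and without replicate 2 of the 6-week Mo arrays it was -2.01 (adjusted p = 0.000554). Against 3 weeks the difference was -1.03 ± 0.71 (adjusted p = 0.264), and -1.85 (adjusted p = 0.00118) without that array.

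Cd177 (chromosome 7, 24743983 to 24760334, Entrez 68891) encodes a neutrophil surface protein that binds PECAM-1 on endothelium and, in human neutrophils, holds proteinase 3 on the surface together with the integrin CD11b/CD18. Its level in PMN was 10.19, 10.29, 10.05 and 10.45 in naive mice, 10.06 and 9.90 at 3 weeks, and 12.46 on both 6-week arrays. The 6-week arrays were separate from all the others and were nearly alike. The change at 6 weeks was 2.21 ± 0.16 (adjusted p = 3.57e-08) against naive and 2.48 ± 0.19 (adjusted p = 9.20e-08) against 3 weeks. At 3 weeks the change was -0.26 ± 0.16 (adjusted p = 1.00), and the groups overlapped.

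In Mo, Cd177 stayed within a narrow range. It was at 10.84, 10.81 and 10.77 in naive Mo, 10.62, 10.82 and 10.77 at 3 weeks, and 10.54, 11.15 and 10.32 at 6 weeks. The 3 groups overlapped, and again replicate 2 was the highest 6-week array. The 6-week change was -0.14 ± 0.16 (adjusted p = 0.470), and without replicate 2 it was a fall, -0.38 (adjusted p = 0.0294). The Mo change minus the PMN change was -2.35 ± 0.23 at 6 weeks (adjusted p = 3.79e-06), and -2.54 ± 0.25 (adjusted p = 3.22e-06) against 3 weeks.

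The genes of the partners of CD177 behaved differently from one another. In PMN at 6 weeks, Itgam and Itgb2, which encode the chains of CD11b/CD18, rose by 0.91 ± 0.10 (adjusted p = 2.10e-06) and 1.02 ± 0.12 (adjusted p = 3.17e-06), and Prtn3, which encodes proteinase 3, rose by 0.76 ± 0.28 (adjusted p = 0.0275). Pecam1 was at 7.53 ± 0.24 (SD, n = 4) in naive and 7.43 ± 0.04 (SD, n = 2) in 6-week PMN and did not pass. In Mo, Prtn3 went from 7.26 ± 0.25 (SD, n = 3) to 10.92 ± 0.68 (SD, n = 3), a rise of 3.67 ± 0.27 (adjusted p = 1.22e-07), and the other 3 genes did not pass. The change of Prtn3 was larger in Mo than in PMN by 2.91 ± 0.39 (adjusted p = 8.64e-05).

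CD177 is stored in the specific granules, and most other genes listed with these granules rose beside it in PMN. The list is broad and shares Cybb and Lyz2 with the monocyte list, so it does not count specific granule proteins alone. Of its 21 measured genes, 20 rose at 6 weeks and 0 fell, with a median change of 1.87. Of all genes 25.5% rose, and their median was -0.18. Chil3 rose by 3.08 ± 0.34, Serpinb1a by 2.93 ± 0.25, Olfm4 by 2.91 ± 0.43 and Ceacam10 by 2.65 ± 0.26. In Mo 10 of the 21 rose and 0 fell, with a median of 0.44, where 21.8% of all genes rose, among them Lcn2 by 4.43 ± 0.21 and Ngp by 4.08 ± 0.44, while Cd177 did not pass. Without replicate 2 of the 6-week Mo arrays 9 of the 21 rose and the median was 0.24, where 26.9% of all genes passed in either direction.

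Plaur (chromosome 7, 24460937 to 24475970, Entrez 18793) encodes uPAR, the receptor that gathers the protease urokinase on the cell surface and works with integrins in cell movement. Its lowest coordinate lies 283046 bases from that of Cd177, and Lypd10, Lypd11, Tex101, Lypd3 and Pinlyp of the same family lie between. In PMN it was at 9.39, 9.33, 9.0 and 9.10 in naive mice, 9.53 and 9.51 at 3 weeks, and 10.31 and 10.55 at 6 weeks. The 3 groups did not overlap, and their order was naive, 3 weeks, 6 weeks. The step at 3 weeks was 0.31 ± 0.13 and did not pass (adjusted p = 1.00). The change at 6 weeks was 1.22 ± 0.13 (adjusted p = 1.61e-06) against naive and 0.91 ± 0.16 (adjusted p = 0.000193) against 3 weeks. After quantile normalization of all 17 arrays together these became 0.50 (adjusted p = 0.00686) and 0.20 (adjusted p = 0.334), so the size of the rise depends on how the arrays are scaled, and the step from 3 to 6 weeks did not pass on that scale.

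In Mo, Plaur was at 9.53, 9.45 and 9.63 in naive mice, 9.69, 9.97 and 9.85 at 3 weeks, and 9.59, 9.60 and 9.20 at 6 weeks. The 3-week arrays were above all naive and all 6-week arrays, by little: the change was 0.30 ± 0.13 (adjusted p = 0.121) from naive and -0.37 ± 0.13 (adjusted p = 0.0972) from 3 to 6 weeks. The 6-week change against naive was -0.07 ± 0.13 (adjusted p = 0.638). The Mo change minus the PMN change was -1.30 ± 0.18 at 6 weeks (adjusted p = 0.000147) and -1.28 ± 0.20 against 3 weeks (adjusted p = 0.000207).

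Of the urokinase and plasmin system, 16 of 21 listed genes were measured. In PMN at 6 weeks 7 rose and 7 fell, with a median of 0.24, where 25.5% of all genes rose and 40% fell. Plau, which encodes urokinase, the ligand of uPAR, moved most: it was at 6.15 ± 0.10 (SD, n = 4) in naive PMN, 6.10 ± 0.19 (SD, n = 2) at 3 weeks and 8.55 ± 0.03 (SD, n = 2) at 6 weeks, a change of 2.40 ± 0.19 (adjusted p = 6.89e-08). The naive and 3-week means of Plau lie below 7.07, the 95th percentile of the receptor genes on the PMN arrays. The size of its change is therefore not a fold of expression. Plaur and Plau thus both passed as higher in 6-week PMN, Plau from a level within background. Itgb2 and Itgam, whose integrin associates with uPAR, rose as given above, and Anxa2, a docking site for plasminogen, rose by 1.02 ± 0.14. When each array was centred on its median, 7 rose and 2 fell, and the share of all genes on that scale is not given here.

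In Mo at 6 weeks 4 genes of the system rose and 5 fell, with a median of -0.22, shares near those of all genes (21.8% and 24.4%). S100a10, the partner of annexin A2, rose by 0.98 ± 0.17, Plgrkt, a plasminogen receptor, by 0.82 ± 0.23, and Plau by 0.64 ± 0.18 (adjusted p = 0.0112), while Itgb3, an integrin chain, fell by 0.57 on the log2 scale. The change of Plau was smaller in Mo than in PMN by 1.77 (Mo minus PMN -1.77 ± 0.26, adjusted p = 0.000215), where the PMN change started from a level within background. S100a10 went the other way in PMN, with a change of -0.60 ± 0.18 (adjusted p = 0.0095), and the subsets differed by 1.58 ± 0.25 (adjusted p = 0.000369).

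**Figure D3:**
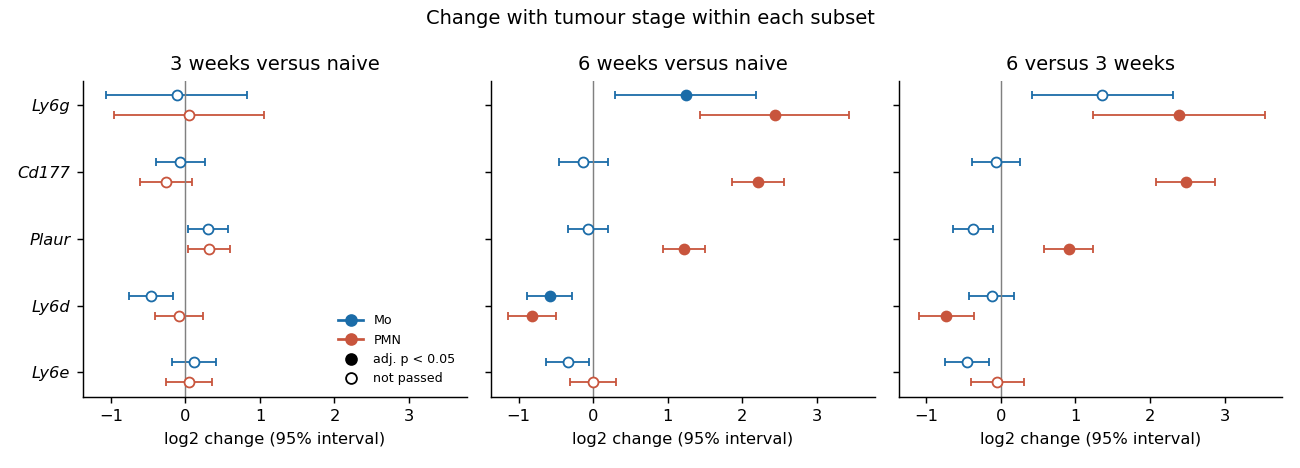
Log2 change of each gene with its 95% interval (line) in Mo and PMN, for 3 weeks against naive, 6 weeks against naive and 6 against 3 weeks; filled points passed at an adjusted p below 0.05. Cd177 and Plaur have filled PMN points far right of 0 in the 6-week panels, with Mo points near 0, and 0 points are filled at 3 weeks.

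Ly6d (chromosome 15, 74762056 to 74763567, Entrez 17068) marks lymphoid progenitors that are turning to the B lineage and is not known as a gene of myeloid cells. In PMN it was at 7.70, 7.86, 8.01 and 7.92 in naive mice, 7.72 and 7.86 at 3 weeks, and 7.02 and 7.08 at 6 weeks. Both 6-week arrays were below all others. The change at 6 weeks was -0.82 ± 0.15 (adjusted p = 0.000268) against naive and -0.74 ± 0.17 (adjusted p = 0.00257) against 3 weeks. The naive and 3-week arrays were above the 95th percentile of the receptor genes, 7.07 on the PMN arrays, and the 6-week arrays lay at about that level.

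In Mo, Ly6d was at 7.95, 7.94 and 7.61 in naive mice, 7.63, 7.19 and 7.30 at 3 weeks, and 7.52, 7.26 and 6.97 at 6 weeks. Every 6-week array was below every naive array, and the 3-week arrays overlapped with both. The change was -0.59 ± 0.14 at 6 weeks (adjusted p = 0.00491) and -0.46 ± 0.14 at 3 weeks (adjusted p = 0.0594). The 6-week changes in Mo and PMN differed by 0.24 ± 0.21 (adjusted p = 0.512). The changes from 3 to 6 weeks differed by 0.61 ± 0.22 (adjusted p = 0.04998, just below the threshold), and the call ended in 14 of 17 fits that left out 1 array (adjusted p from 0.0109 to 0.155) and in 4 of 9 other alternatives.

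Genes of other cell types fell in the same samples, those of B cells most in PMN. Of 15 measured, 14 fell at 6 weeks and 0 rose, with a median of -1.06, where 40% of all genes fell. Cd79a, a chain of the B cell receptor, went from 9.45 ± 0.13 (SD, n = 4) to 7.57 ± 0.22 (SD, n = 2). The summed linear intensity of the 15 genes was 4751 to 5432 in naive PMN and 1933 to 2222 at 6 weeks. In Mo 9 of the 15 fell, with a median of -0.62, where 24.4% of all genes fell. Without replicate 2 at 6 weeks 2 of the 15 fell, where 26.9% of all genes passed in either direction, against 46.2% with it. With each subset fitted alone 1 of the 15 fell, where 5584 of all 19938 genes passed in either direction. Of 17 genes of T and NK cells 11 fell and 1 rose in PMN (median -0.41), and 14 fell and 0 rose in Mo (median -0.89). Of 16 dendritic cell genes 11 fell and 1 rose in PMN (median -0.60), and 14 fell and 1 rose in Mo (median -0.61). Of all genes 40% fell and 25.5% rose in PMN, and 24.4% fell and 21.8% rose in Mo. In Mo the summed intensity of the T and NK cell genes was 2749 to 3787 in naive mice and 1561 to 1894 at 6 weeks, and that of the dendritic cell genes 6921 to 7129 and 2005 to 3009. The part of any of these lists in the fall of Ly6d was not tested. The receptor genes taken as background also drifted down, with a median change of -0.36 in PMN and -0.32 in Mo at 6 weeks, and 682 and 591 of the 1190 passed as lower.

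Ly6e (chromosome 15, 74955025 to 74959904, Entrez 17069) encodes a widely expressed Ly6 protein whose gene is induced by interferon and which limits entry of several viruses. In PMN it was at 9.51, 9.29, 9.05 and 9.13 in naive mice, 9.46 and 9.12 at 3 weeks, and 9.33 and 9.16 at 6 weeks. All groups overlapped, and the 6-week change was 0.00 with a 95% interval from -0.31 to 0.31 (adjusted p = 0.996). After quantile normalization of all 17 arrays together it was -0.77 (adjusted p = 0.000182), so this value depends on how the arrays are scaled.

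In Mo, Ly6e was at 12.22, 12.21 and 12.37 in naive mice, 12.28, 12.40 and 12.46 at 3 weeks, and 12.18, 11.64 and 11.95 at 6 weeks. The 6-week arrays were below all the other Mo arrays. The change was -0.34 ± 0.14 against naive (adjusted p = 0.0510) and -0.46 ± 0.14 against 3 weeks (adjusted p = 0.0547), both just short of the threshold. Replicate 2, which stood apart for Ly6g, was the lowest: without it the changes were -0.20 (adjusted p = 0.252) and -0.32 (adjusted p = 0.319). With arrays centred on their medians the change against naive was -0.22 (adjusted p = 0.238). After joint quantile normalization they were -0.53 (adjusted p = 0.00631) and -0.48 (adjusted p = 0.0250). Of 27 other interferon-stimulated genes, 25 fell in Mo at 6 weeks and 0 rose, with a median of -1.14, where 24.4% of all genes fell. Ifi44l had a change of -2.46 ± 0.36 and Oasl2, a relative of the antiviral OAS enzymes, of -2.30 ± 0.20. In PMN 4 of the 27 rose and 5 fell, with a median of -0.09, where 25.5% of all genes rose and 40% fell.

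The order of levels across subsets could be described but not tested. Ly6e was higher in every Mo array than in every PMN array, and PMN minus Mo was -2.93 in the deposited values and -2.11 after joint quantile normalization. Ly6g was higher in every PMN array than in every Mo array, as the sort requires; the size is not given, since 8 of the 9 Mo arrays lay below the 95th percentile of the receptor genes. For Cd177, Plaur and Ly6d the difference depended on the scale. PMN minus Mo was -0.01, -0.02 and 0.16 in the deposited values, and 0.89, 0.82 and 0.81 after joint normalization.

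The other genes of the Ly6/uPAR family mostly fell, by small amounts. Of 39 listed, 33 were measured, and 15 of these averaged above the 95th percentile of the receptor genes in Mo and 13 in PMN. In PMN at 6 weeks 0 rose and 27 fell, where 25.5% of all genes rose and 40% fell. The median was -0.45, close to that of the receptor genes. Of the 1190 receptor genes 682 fell in PMN and 591 in Mo. In Mo 22 of the 33 family genes fell and 1 rose, with a median of -0.38, where 24.4% of all genes fell and 21.8% rose. The riser was Cd59a, which encodes an inhibitor of complement, from 4.64 ± 0.20 (SD, n = 3) to 4.94 ± 0.15 (SD, n = 3), a level within background. Without replicate 2 of the 6-week Mo arrays 9 fell and 0 rose, with a median of -0.35; over all genes 26.9% then passed, against 46.2%. When each array was centred on its median, 17 fell in PMN and 11 in Mo, and 1 rose in each. The share of all genes on that scale is not given here. At 3 weeks 0 of the 33 passed in either subset, while 12 in Mo and 1 in PMN had an unadjusted p below 0.05. Over all genes 32.9% in Mo and 1.88% in PMN did.

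Ly6i, whose lowest coordinate lies 24509 bases from that of Ly6e, fell in Mo. It went from 8.24 ± 0.18 (SD, n = 3) in naive Mo to 7.18 ± 0.56 (SD, n = 3) at 6 weeks, a change of -1.06 ± 0.21 (adjusted p = 0.00113). It was the 1 gene of the 33 that passed between 3 and 6 weeks in Mo, with -1.13 ± 0.21 (adjusted p = 0.00148), where 3.13% of all genes fell. In PMN it fell by 0.84 on the log2 scale at 6 weeks (adjusted p = 0.00356). Gml, Lypd2 and Slurp2 had larger changes in PMN, of -0.97 ± 0.18, -0.88 ± 0.16 and -0.87 ± 0.18. Gml averaged 6.83 in naive PMN, within background.

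Against 25.5% of all genes, 0 of the 33 other family genes rose in PMN at 6 weeks, those next to Ly6g and Cd177 among them. Of the 1190 receptor genes taken as background 0 rose either, with a median change of -0.36. The lack of a rise thus does not set the family genes apart from background. The lowest coordinates of Ly6g2 and Ly6f lie 61090 and 113111 bases beyond that of Ly6g. Ly6g2 averaged 6.60 in naive and 6.46 in 6-week PMN, levels within background, and did not pass (adjusted p = 0.505). Ly6f averaged 7.75 and 7.33, a fall (adjusted p = 0.031). Near Cd177, Tex101 fell by 0.46 on the log2 scale in PMN (adjusted p = 0.00183) and Lypd3, which encodes another GPI-anchored protein, by 0.34 (adjusted p = 0.045). In naive PMN Tex101 averaged 6.31, within background, and Lypd3 7.15, just above the receptor guide of 7.07.

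**Figure D4:**
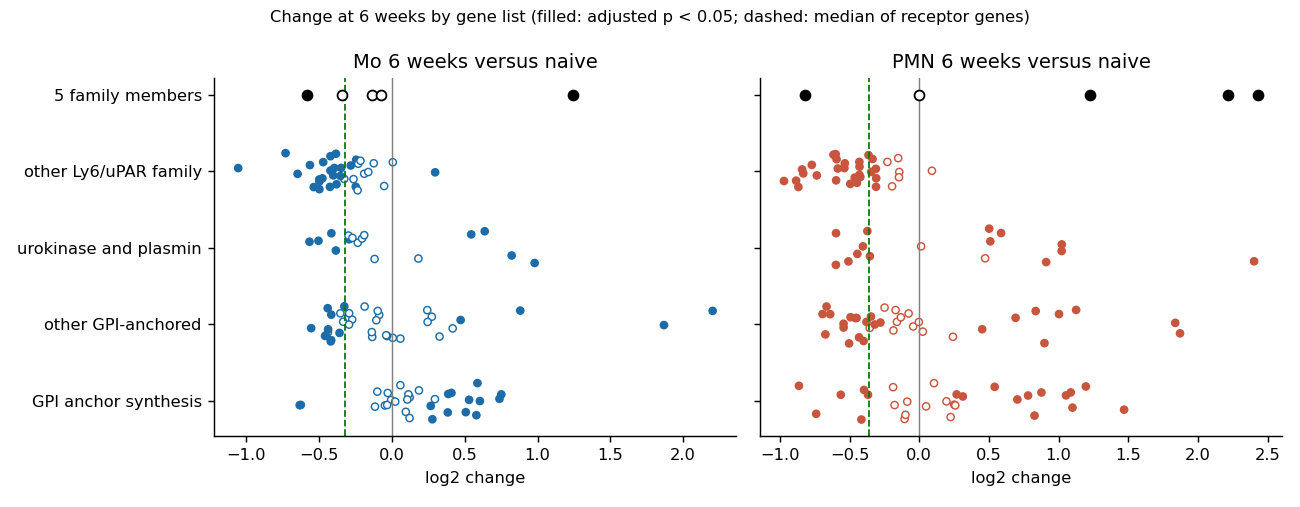
Log2 change at 6 weeks in Mo and PMN for the 5 genes (black) and for each measured gene of 4 lists (coloured; filled where the adjusted p was below 0.05), with the median of the receptor genes as a dashed line (-0.32 in Mo, -0.36 in PMN). The other family genes gather around the dashed line, and Ly6g, Cd177 and Plaur lie far to its right in PMN.

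Among 35 other GPI-anchored proteins of leukocytes, 8 genes rose and 16 fell in PMN at 6 weeks, with a median of -0.25, near the shares of all genes (25.5% and 40%). Mmp25, a GPI-anchored metalloprotease of neutrophils, rose by 1.87 ± 0.20, Cd52 by 1.84 ± 0.18, Gpc1, which encodes the proteoglycan glypican-1, by 1.13 ± 0.19 and Cd24a, which encodes the heat stable antigen, by 1.00 ± 0.24. In Mo 4 rose and 10 fell, with a median of -0.14, where 21.8% of all genes rose and 24.4% fell. Without replicate 2 at 6 weeks 3 rose and 3 fell, where 26.9% of all genes passed in either direction. The changes were led by Dpep2, a dipeptidase, with 2.20 ± 0.16, and Cd24a with 1.87 ± 0.23. Bst2, which encodes tetherin and is induced by interferon, fell in both subsets, with changes of -0.56 ± 0.10 in Mo and -0.67 ± 0.10 in PMN. Centred on the array medians, 9 fell in PMN and 3 in Mo, and the share of all genes on that scale is not given here.

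Of the genes that build, attach or trim the GPI anchor, more rose than fell. Of 29 measured, 12 rose and 6 fell in PMN at 6 weeks, with a median of 0.23, where 25.5% of all genes rose and 40% fell. In Mo 12 rose and 2 fell, with a median of 0.12, where 21.8% rose and 24.4% fell. Without replicate 2 at 6 weeks 8 rose and 2 fell, with a median of 0.21, where 26.9% of all genes passed in either direction. In PMN, Dpm1, a subunit of the enzyme that makes dolichol-phosphate mannose, rose by 1.47 ± 0.16, Pigu, of the transamidase that attaches the anchor, by 1.20 ± 0.15, Piga, of its first step, by 1.10 ± 0.18 and Mppe1, which trims the attached anchor, by 1.09 ± 0.10. In Mo, Pign rose by 0.75 ± 0.18 and Pigq by 0.74 ± 0.16, while Pgap1 and Pigz had changes of -0.63 ± 0.14 and -0.63 ± 0.12. The Mo split turned to 4 higher and 6 lower after joint quantile normalization, where 5244 of all 19938 genes passed in either direction.

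Across the 8 PMN arrays Ly6g, Cd177 and Plaur followed one another, with Pearson's r of 0.95 for Ly6g with Cd177, 0.93 for Ly6g with Plaur and 0.90 for Cd177 with Plaur, and each ran against Ly6d (r from -0.97 to -0.95). These values describe arrays that share 3 stages and so mostly restate the step at 6 weeks. Across the 9 Mo arrays the same 3 pairs had r of 0.51, -0.17 and 0.43, and Ly6g ran against Ly6e with r of -0.89, with Ly6g highest and Ly6e lowest on the same array, replicate 2 at 6 weeks. The genes named next are the highest of 17105 over only 9 Mo or 8 PMN arrays. No chance level was worked out, so they are a description and not a finding of shared regulation. Of 17105 genes searched, those most like Ly6g were Olfm4 (r = 0.99), Syne1 and Zfp580 in Mo, and Map2k1 (r = 0.998), Anapc15 and Sub1 in PMN. For Cd177 they were Insig1 (r = 0.95), Ank and Tmem86a in Mo, and Tkt (r = 0.998), Rab35 and Mcur1 in PMN. For Plaur they were Smox (r = 0.98), Jaml and Fcgr3 in Mo, and Arf3 (r = 0.99), Prkx and Mgll in PMN. Those most like Ly6d were Ces2a (r = 0.99), Syne4 and Tafa3 in Mo, and Dll1 (r = 0.995), Eno2 and Vstm2b in PMN, and those most like Ly6e were Treml4 (r = 0.98), Fgd2 and Vegfc in Mo, and Isl1 (r = 0.96), Cxcr4 and Hebp2 in PMN.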

How the data were processed

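RNA of 17 sorted cell samples was hybridised to Affymetrix Mouse Gene 1.0 ST arrays. The authors made the values with RMA, per the submitters' processing notes; its version is not given in the sources used here. The deposited values are an intensity per feature on a linear scale, from 9.7551 to 32095.39, although log2 values had been assumed when the tests were planned, and log2 was taken here. More distinct values were shared within a subset (median 942.5 for a pair of Mo arrays, 251 for PMN) than across (146), which is why the subsets were treated as normalized apart.

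Of 35557 features, 21789 carried 1 gene symbol, 1621 several and 12147 none; a gene with several (999 genes) was represented by its brightest feature on average, leaving 19938 genes. Old symbols were checked against RefSeq (GRCm38.p6) for 21698 features. Log2 values of the 17 arrays entered 1 limma 3.58.1 model (lmFit and eBayes, R 4.3.3) with 6 group means, with no dim-feature filter, two-sided tests and Benjamini-Hochberg adjustment over all genes at 0.05. The script was tested on simulated data. The 5 genes and the gene lists were chosen with earlier results of these data known. From each list, up to 4 genes with the largest change past the threshold were named, plus any family gene or CD177 partner, and for each of the 5 genes the 3 most correlated genes per subset. Alternatives in scaling, floor, offset, feature choice, weights, spread, replicate block and left-out arrays were run. Genes of features shared by several genes were left out.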

Additional observations from a re-analysis of the deposited data

Results flagged for a closer look

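Of 5 genes examined in the 4 naive PMN arrays, 1 had an array that stood apart: the Ly6g level of replicate 2 (11.14) was separated from the next by a gap of 0.833 of the whole range, above Dixon's 95% critical value. Chance flags about 1 in 20 such groups. Without that array the 6-week rise of Ly6g in PMN was 2.64.

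The change in Mo differed from that in PMN for 3 genes. For Cd177 the Mo change minus the PMN change was -2.35 at 6 weeks against naive and -2.54 from 3 to 6 weeks, and for Plaur it was -1.30 and -1.28. Both passed with each array left out in turn. For Ly6d the difference from 3 to 6 weeks was 0.61, with an adjusted p of 0.04998, just below the threshold. The call ended in 14 of 17 fits that left out 1 array, and with arrays centred on their medians (0.40, adjusted p = 0.173), a floor on dim values (adjusted p = 0.0710), a log offset (0.0531) or a trended, robust spread (0.0527).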

How the results depend on the processing

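In PMN at 6 weeks, Ly6g, Cd177, Plaur and Ly6d kept direction and call under all alternatives run, but not size. After joint quantile normalization their log2 changes were 1.66, 1.61, 0.50 and -1.09, against 2.43, 2.21, 1.22 and -0.82. Of 1200 comparisons of a gene's change with an alternative, 1085 kept direction and side of the threshold. Another 51 reversed, 40 passed anew and 24 no longer passed, and the cause was not tested. For part of them the direction was fixed: the array left out lay outside the comparison, or features were averaged for genes with 1 feature. The 1085 therefore overstate how stable the changes are. Arrays, and for dim genes signal over background, limit the precision. Replicate numbers were not taken to pair arrays, since not every pair of same-numbered arrays correlated (r from -0.09 to 0.63 in Mo, -0.46 to 0.02 in PMN), although 7 of 9 Mo arrays correlated best with their own number, and the array weights' estimation did not converge.

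The number of the 5 genes past the threshold in Mo became 3 at 3 weeks, 3 from 3 to 6 weeks and 1 for the 3-week difference between subsets with array weights. Of all 19938 genes 15177, 7809 and 8561 then passed, so these counts stand against a wide background. With the replicate block 1 of the 5 passed in Mo at 3 weeks and 1 against 3 weeks, where 5302 and 2374 of all genes passed. They were Ly6d at 3 weeks (adjusted p = 0.0080) and Ly6e against 3 weeks (adjusted p = 0.0168). Ly6e then also passed in Mo at 6 weeks (adjusted p = 0.0195). With joint quantile normalization the number in Mo was 4 at 6 weeks and 3 against 3 weeks, where 5244 and 1677 of all genes passed. At 6 weeks it was 1 with a floor on dim values (8138 of all genes) and 1 with each subset fitted alone (5584). With dim genes left out it was 1 against 3 weeks, where 1541 of 16332 genes passed. Leaving out 1 array at a time gave 0 to 2, 1 to 3 and 0 to 3 in Mo, and 2 to 3 for the differences between subsets at 6 weeks and from 3 to 6 weeks. In Mo, the 2 at 3 weeks came where 8911 of all genes passed, and the 3 from 3 to 6 weeks where 2803 did. For the other fits with 1 array left out the share of all genes is not given here. PMN minus Mo levels after joint quantile normalization were 0.89 (Cd177), 0.82 (Plaur), 0.81 (Ly6d) and -2.11 (Ly6e).

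Reversed values, small unless a p is given, were as follows. Centred on medians, Mo at 3 weeks gave 0.0039 for Ly6g and 0.0494 for Cd177, Plaur gave 0.0474 in Mo at 6 weeks and 0.12 for the 3-week difference, and Ly6e 0.17 in PMN from 3 to 6 weeks. Jointly normalized, Ly6g gave 0.0404 in Mo and -0.0094 in PMN at 3 weeks and 0.0498 for their difference, and Ly6e -0.0469 in Mo at 3 weeks, -0.77 in PMN at 6 weeks (adjusted p = 0.000182), and -0.0870, 0.25 and 0.33 for the differences. With array weights, Cd177 in Mo gave 0.0044, 0.17 and 0.17, Plaur 0.0561 in Mo at 6 weeks and 0.17 for the 3-week difference, Ly6d 0.0506 (Mo, 6 against 3 weeks) and Ly6e -0.0015 (PMN at 6 weeks), and Ly6g 0.0184 for the later difference. With the replicate block, PMN at 3 weeks gave -0.19 for Ly6g, 0.0079 for Ly6d and -0.11 for Ly6e, Ly6e in PMN at 6 weeks -0.15, and the 3-week difference 0.0708 for Ly6g and 0.14 for Plaur.

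Leaving out 1 array at a time, changes that reversed ran, for Ly6g, from -0.22 to 0.0106 (Mo, 3 weeks), -0.29 to 0.39 (PMN, 3 weeks) and -0.50 to 0.18 (their difference); for Cd177 in Mo from -0.38 to 0.0397 at 6 weeks and -0.31 to 0.11 against 3 weeks; for Plaur from -0.14 to 0.0572 (Mo, 6 weeks) and -0.0839 to 0.0601 (3-week difference); for Ly6d in Mo from -0.26 to 0.0170 against 3 weeks; and for Ly6e in PMN from -0.12 to 0.22, -0.0801 to 0.0887 and -0.22 to 0.12, and for its 3-week difference from -0.10 to 0.24.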
